A study of Drosophila melanogaster with 2 samples.

Results

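The genes described here are 10 genes of the epidermal growth factor receptor, Ras and MAP kinase pathway of Drosophila melanogaster, and the values are ChIP-seq peaks of a GFP-tagged CG32264 protein at these genes. The genes were taken as a list: Egfr, Sos, csw, Ras85D, Raf, Dsor1, rl, pnt, aop and sty. A peak belongs to a gene when its summit lies in the annotated gene (Ensembl BDGP6, dm6 coordinates counted from 1) or within 3 kb of it. By this rule 22 of the 2546 peaks of the optimal set belong to the 10 genes, out of 13945 protein-coding genes on 6 chromosome arms. The material was whole wandering larvae of the third instar, males and females pooled, of a transgenic line in which GFP is joined to the C terminus of CG32264, which belongs to the family of phosphatase and actin regulators. There were 2 biological replicates, numbered 1 and 3, of this 1 group, with no other genotype, treatment or time. The labels do not say which tissues carry the fusion protein, and a peak from a whole larva does not show the tissue it came from. The optimal set is what the authors kept after an irreproducible discovery rate (IDR) step, which compares the ranks of peaks between replicates. A list of 30000 peaks and background regions was also at hand for each replicate and for both together. The number of reads is unknown, a control library was not analysed here, so the absence of a peak does not mean that the protein was absent.

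In this pathway a ligand binds the receptor tyrosine kinase Egfr, and the exchange factor Sos then loads the small GTPase Ras85D with GTP. Ras85D activates the kinase Raf, which phosphorylates Dsor1 (the fly MEK), which phosphorylates rl (the fly ERK). The MAP kinase acts on ETS transcription factors in the nucleus: it activates Pnt and removes the repressor Aop, also known as Yan. Sprouty, encoded by sty, restrains the pathway as a feedback inhibitor, and the tyrosine phosphatase Csw transmits the receptor signal. In larvae the pathway patterns the imaginal discs, among them the eye disc, where it drives the recruitment of photoreceptors.

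The sequences below are those at the strongest peak of Raf, pnt and sty and at a further peak far inside Raf, shown because the results turn on these sites. Each is the plus strand of dm6 (RefSeq, Release 6), the summit with 100 bp on each side. Capitals mark matches on either strand to GAGAG, the core of the GAGA element, or to CANNTG, the E-box.
Raf peak 5 (chrX:2300604-2300804): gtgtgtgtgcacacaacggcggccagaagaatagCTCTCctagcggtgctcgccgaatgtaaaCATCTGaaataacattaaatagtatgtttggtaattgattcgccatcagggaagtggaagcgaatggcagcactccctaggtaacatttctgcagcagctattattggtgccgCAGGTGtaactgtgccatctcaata
Raf peak 9 (chrX:2322023-2322223): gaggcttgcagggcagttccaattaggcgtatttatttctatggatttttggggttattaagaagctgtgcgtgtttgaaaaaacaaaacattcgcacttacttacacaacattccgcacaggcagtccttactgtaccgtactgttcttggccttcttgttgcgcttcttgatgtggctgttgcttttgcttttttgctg
pnt peak 2 (chr3R:23333844-23334044): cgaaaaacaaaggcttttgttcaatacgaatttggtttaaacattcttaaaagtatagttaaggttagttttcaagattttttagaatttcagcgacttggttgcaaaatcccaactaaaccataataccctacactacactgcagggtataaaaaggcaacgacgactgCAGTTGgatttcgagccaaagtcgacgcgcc
sty peak 2 (chr3L:3418857-3419057): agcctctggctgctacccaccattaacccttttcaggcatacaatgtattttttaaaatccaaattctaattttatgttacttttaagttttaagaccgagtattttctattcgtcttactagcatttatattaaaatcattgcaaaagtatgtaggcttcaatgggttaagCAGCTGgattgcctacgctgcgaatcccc

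Across the 22 summit windows of the 10 genes, GAGAG was found in 10 and CANNTG in 14. Among all 2546 windows of the optimal set the shares were 27.6% and 61.5%, against 45.5% and 63.6% here. CCGGAA, a core of the ETS sites that Pnt and Aop bind, was in 1 window, that of Raf peak 7, against 3.34% of all windows. AGATAA, the site of the fly's zinc-finger GATA-type factors, was in none of the 22, against 13.9% of all windows. The DNA replication-related element, spelled TATCGATA, was in none either, against 2.95%, and the Mef2 site was in 3, against 10.9%. Of the 10 windows with GAGAG, 5 were among the 9 of Raf, where peak 6 alone held 9 overlapping matches. GC content was 39.7% ± 5.77 (SD over 22 windows), and 36.9% ± 6.46 (SD over 2546 windows) in the whole optimal set. These shares describe the letters in the windows only, and no test was made on them.

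The peaks were unevenly spread over the 10 genes: Raf held 9, Egfr and aop 4 each, pnt 3 and sty 2, while Sos, csw, Ras85D, Dsor1 and rl held none. Thus 5 of the 10 genes had a peak, where 24.3% of all protein-coding genes did. The windows of the 10 genes covered 335 kb and held 0.657 summits per 10 kb, against 0.268 over the windows of all protein-coding genes. The median was 1 summit per gene here and 0 over all protein-coding genes. Taking the 2546 strongest peaks of a replicate by signal (column 7 of the list), 6 of the 10 genes had a peak in replicate 1 and 6 in replicate 3. The shares of all protein-coding genes were 25.4% and 22.3%.

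Length has to be read beside these counts, because a longer gene offers more room for a summit. Among protein-coding genes with windows over 40 kb, 45.5% had a peak, and Egfr, Raf and pnt did so while rl did not. From 20 to 40 kb the share was 41.5%, and aop and sty had a peak while csw did not. Sos lay in the class from 10 to 20 kb, where the share was 31.8%, and Ras85D and Dsor1 in the class up to 10 kb, where it was 19.4%. The 5 genes with a peak were thus all among the 7 with windows over 20 kb. Raf was at the upper end of its class: 8 of the 567 genes over 40 kb (1.41%) held 9 or more summits of the optimal set. Over all 13945 genes these same 8 were 0.0574%. A count of 4 or more, as at Egfr, was reached by 59 of the 567 genes over 40 kb (10.4%).

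**Figure D1:**
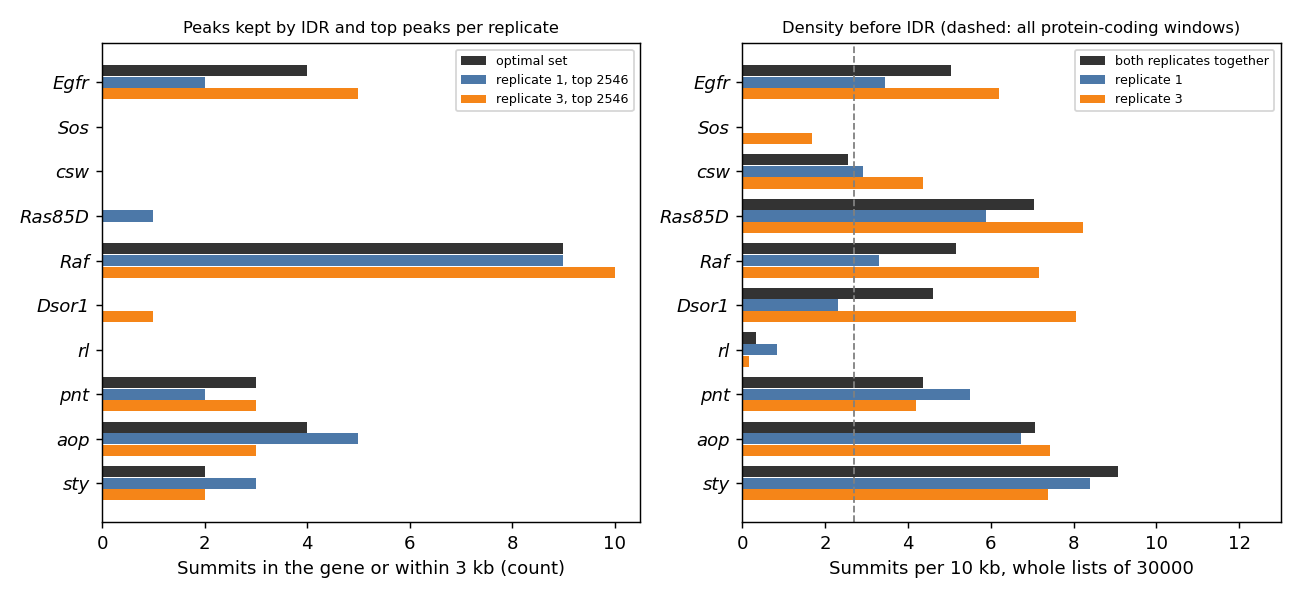
Summits in or within 3 kb of each of the 10 genes, in pathway order. Left, counts in the optimal set and among the 2546 strongest peaks of each replicate; right, summits per 10 kb in the 3 whole lists of 30000, with a dashed line at the density over all protein-coding windows in the list of both replicates together (2.69). Raf has the highest count in all 3 bars on the left, and rl stays below 1 per 10 kb on the right.

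**Figure D2:**
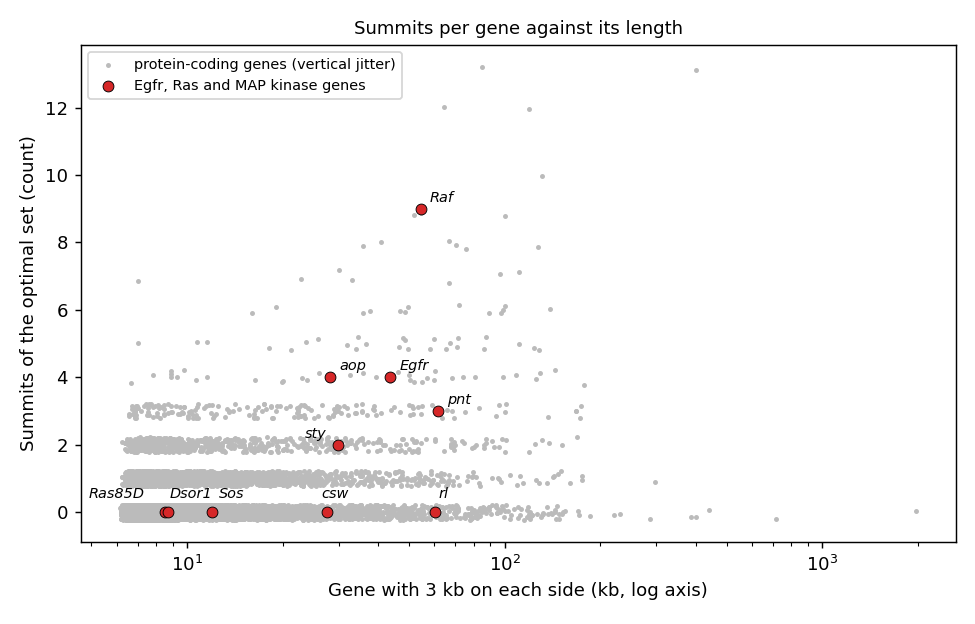
Summits of the optimal set per gene (vertical axis) against the length of the gene with 3 kb on each side (log axis, kb), for 13945 protein-coding genes in grey (with vertical jitter) and the 10 pathway genes in red. Raf, with 9 summits in 54.4 kb, lies among the 8 genes with 9 or more.

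Egfr, the receptor (FBgn0003731, 2R, 21522420 to 21559977, plus strand), held 4 summits, or 0.918 per 10 kb. The first lay in the 5′ UTR, 135 bp from the upstream start, and the other 3 in intron 1 of the transcript Egfr-RA. These were 20163, 29143 and 31411 bp from that start. The peak at 29143 bp ranked 906 in the optimal set, 1134 in replicate 1 and 925 in replicate 3. That at 20163 bp lay 2010 bp from the start of CG30283 and 4060 bp from the nearer start of Egfr. It ranked 1561, 1781 and 1621 in the same order, so for both peaks the replicates gave similar places. For the other peaks they did not. The promoter peak (rank 1737) was 9429 in replicate 1 and 660 in replicate 3, and the peak at 31411 bp (rank 1998) was 10949 and 654. Among the 2546 strongest peaks the gene accordingly held 2 summits in replicate 1 and 5 in replicate 3. The downstream start of Egfr showed the same direction: its best peak, 25 bp away and outside the optimal set at rank 2927, ranked 9374 in replicate 1 and 1436 in replicate 3.

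Among the 10 listed genes, Sos and csw, which link the receptor to Ras, carried no peak of the optimal set. Sos (FBgn0001965, 2L, 13813816 to 13819824) had no summit in the whole list of both replicates together, where 77.7% of protein-coding genes had at least 1, nor in that of replicate 1. Its 2 summits in replicate 3 ranked 13408 or worse. The share of protein-coding genes with a summit was 80.7% in the whole list of replicate 1 and 80.5% in that of replicate 3. csw (FBgn0000382, X, 2094234 to 2115701) had 7 summits in the list of both together, the best at rank 8364. That summit lay 435 bp upstream of csw, in the 3′ UTR of another gene, and ranked 13431 in replicate 1 and 18229 in replicate 3. In that list csw was close to the general density, with 2.55 summits per 10 kb against 2.69 over all protein-coding windows. The values were 2.91 against 2.65 in replicate 1 and 4.37 against 2.84 in replicate 3.

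Ras85D, the Ras GTPase gene (FBgn0003205, 3R, 9510561 to 9513067), had no peak of the optimal set but came near it. Its start had a peak 74 bp away at rank 3423 in the list of both replicates together, which ranked 2323 in replicate 1 and 9973 in replicate 3. The next gene upstream is Rlb1, and the summit in replicate 1 lay 90 bp from the start of Rlb1 and 170 bp from that of Ras85D. The best summit in its window, at rank 3325, lay 73 bp from the start of rump, so it is nearer to another gene.

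The kinase genes differed most from each other. Raf held 9 summits of the optimal set in 54.4 kb (1.65 per 10 kb), Dsor1 none in 8.7 kb and rl none in 60.5 kb. Raf (FBgn0003079, X, 2295466 to 2343870, plus strand) has 2 annotated starts. The transcript Raf-RE begins at 2295466 and spans 48405 bp, whereas Raf-RA begins at 2340298 and spans 3573 bp. Of the 9 summits, 8 were nearer to the upstream start: 1 of them lay 1716 bp before it, and the others lay in intron 2 of Raf-RE, as did the ninth. Within 3 kb of the stretch of Raf-RA there was no summit of the optimal set.

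The highest peak at Raf, peak 5 of the sequences above (X, 2300580 to 2300834), lay 5238 bp from the upstream start. It ranked 47 in the optimal set, 61 in replicate 1 and 34 in replicate 3, the best ranks at any of the 10 genes. Its neighbours, at 3737 bp (rank 309), 940 bp (427), 2241 bp (708) and 8672 bp (744), were also in the stronger 50% of the optimal set. So were those 1716 bp before the start (414) and at 6880 bp (1054), while that at 10938 bp was weaker (1921). Together these 8 summits covered 12654 bp, with gaps of 1301 to 2656 bp (median 1642 bp). In all 6 arms only 3 runs of 8 neighbouring summits of the optimal set were as short, this run and 2 that overlap each other on 3L; the run was picked after its values were seen. The same stretch, with 200 bp added on each side, held 8 of the 2546 strongest summits in replicate 1 and 9 in replicate 3. Of those in replicate 3, 2 belong to peaks that overlap each other (ranks 609 and 761), both at the optimal-set peak of rank 427.

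The remaining summit of Raf, peak 9 (X, 2321989 to 2322174), lay 26657 bp downstream of the upstream start. It ranked 302 in the optimal set, 275 in replicate 1 and 229 in replicate 3. The nearest start, at 141 bp, is that of the nested non-coding gene lncRNA:CR34052, and the start of Raf-RA lay 18175 bp away. The peak before the gene was likewise nearer to another start, 339 bp from CG2865. The run ended 33894 bp before the downstream start of Raf, and neither start had an optimal-set summit within 500 bp. All 9 peaks of Raf were among the 2546 strongest in both replicates, which held for 6 of the 13 peaks at the other 4 genes and for 1568 of the 2546 peaks of the optimal set (61.6%).

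The 3 genes with summit densities most like those of Raf in the 4 lists were bves, dnr1 and NK7.1. Likeness was the Euclidean distance of log2(density per 10 kb + 0.1) among 884 genes with windows from 0.5 to 2 times as long, and was 0.645, 0.649 and 0.677. These genes held 5, 4 and 6 summits of the optimal set, against 9 in Raf, but their windows were shorter (34429, 35813 and 49539 bp against 54405). Per 10 kb the values were 1.45, 1.12 and 1.21, against 1.65 in Raf. In the list of both replicates together they were 4.65, 4.47 and 6.86, against 5.15. The 4 lists share reads, so the measure rests on 2 replicates.

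Dsor1 (FBgn0010269, X, 9247342 to 9250037) had 4 summits in the list of both replicates together, the best at rank 3055. The 2 best lay 4368 and 3885 bp from the start of Dsor1 but 212 and 695 bp from that of CG17754, so they sit at the neighbouring gene. The first ranked 20905 in replicate 1 and 1785 in replicate 3, and the second 2815 and 6672. Within 500 bp of the starts of Dsor1 replicate 1 had no summit and replicate 3 had 2, the better at rank 5331.

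rl, the MAP kinase gene (FBgn0003256, 2R, 1071462 to 1125927), had few summits even before IDR, though Sos had fewer in the list of both replicates together and in replicate 1. rl had 2 summits in the list of both replicates together, 5 in replicate 1 and 1 in replicate 3, or 0.331 per 10 kb in the first against 2.69 over all protein-coding windows. Its surroundings were also sparse: the gene with 500 kb on each side held 18 summits in that list, or 0.171 per 10 kb, and the arms as a whole 2.24. The nearest summit of the optimal set lay 4950691 bp away. In the RefSeq sequence, where lower case marks repeats, 47.2% of the rl window was lower case, against 9.4% to 22.5% in the windows of the other 9 genes and 20.1% over the 6 arms. The part of repeats in the low count was not tested.

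Each of the nuclear effectors and the feedback inhibitor carried peaks of the optimal set, the best of them at rank 299. pnt (FBgn0003118, 3R, 23290231 to 23346167, minus strand) encodes the ETS activator and held 3 summits, 0.484 per 10 kb. A pair of them lay 11696 and 12223 bp downstream of the distal start, in intron 3 of pnt-RB. They were 668 and 141 bp from the nested lncRNA:CR46090. The farther of the pair, shown above as peak 2, ranked 1701 in the optimal set, 1673 in replicate 1 and 1814 in replicate 3. The nearer ranked 1937, 6658 and 789, so it was high in replicate 3 alone. The third lay 2472 bp upstream of the proximal start, of pnt-RC and pnt-RE, and ranked 2482, 2012 and 5717. None lay within 500 bp of any of the 3 starts.

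aop (FBgn0000097, 2L, 2156484 to 2178754, minus strand), which encodes the ETS repressor, held 4 summits in 28.3 kb, or 1.41 per 10 kb, the density nearest to that of Raf. Of these, 3 lay in intron 1 of aop-RB, 473, 2110 and 3449 bp upstream of the start of the short transcripts aop-RA and aop-RD. The farthest was the highest, with rank 299, 221 in replicate 1 and 689 in replicate 3. The next ranked 793, 645 and 996, and the nearest 2497, 2084 and 5020. The last summit lay 1544 bp upstream of the gene and ranked 1866, 1913 and 2579. All 4 ranked better in replicate 1 than in replicate 3. The distal start of aop had a peak 22 bp away that stayed outside the optimal set at rank 2697, with rank 11662 in replicate 1 and 1164 in replicate 3.

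sty (FBgn0014388, 3L, 3401153 to 3424935, minus strand), the Sprouty gene, held 2 summits in 29.8 kb, or 0.672 per 10 kb. Both lay in the intron of sty-RC, 996 and 2526 bp upstream of the start of sty-RB. The first, shown above as peak 2, ranked 1807 in the optimal set, 2224 in replicate 1 and 1619 in replicate 3. The second ranked 2147, 2316 and 3417. In the whole list of both replicates together sty held 27 summits, or 9.07 per 10 kb, the highest density of the 10 genes there. Most of these were weak: 6 of the 27 ranked within the first 5000.

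**Figure D3:**
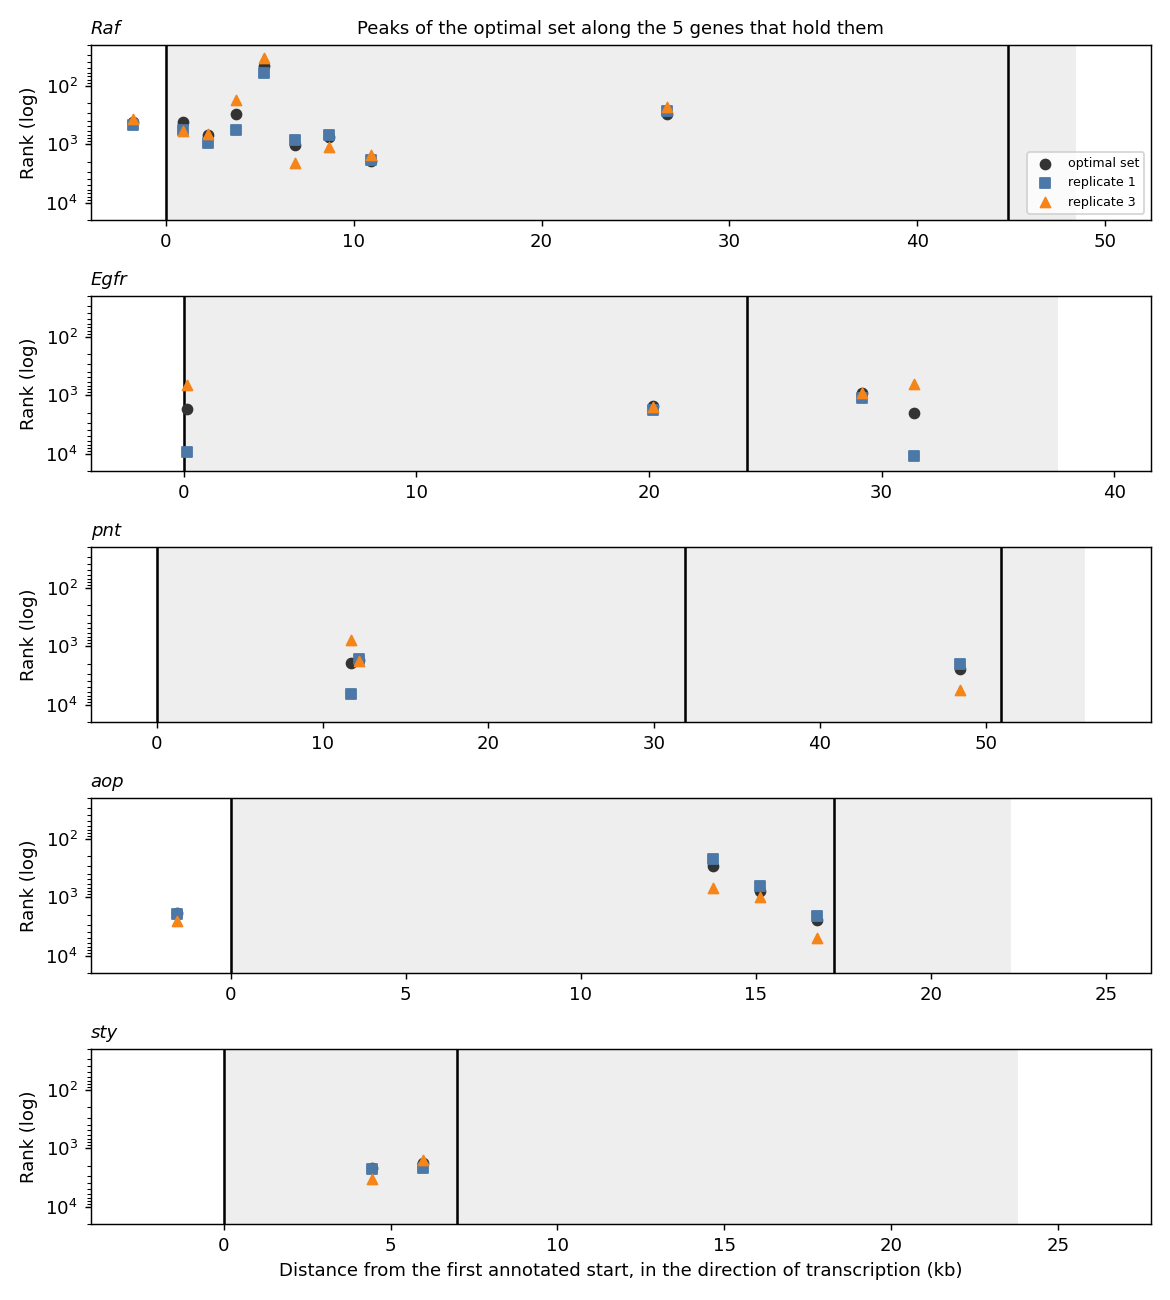
Peaks of the optimal set along the 5 genes that hold them, as rank by signal (vertical log axis, highest at the top) against the distance in kb from the first annotated start in the direction of transcription. Grey spans the gene and black lines are annotated starts; circles, squares and triangles give the rank in the optimal set, replicate 1 and replicate 3. At Raf 8 of the 9 summits lie between 1716 bp before and 10938 bp after the upstream start, and all summits of aop and sty lie upstream of their downstream start.

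Kinase genes against nuclear effectors and the feedback inhibitor gave close densities in the optimal set, but the order depended on the genes and peaks taken. Raf, Dsor1 and rl held 9 summits in 124 kb (0.728 per 10 kb), and pnt, aop and sty held 9 in 120 kb (0.75 per 10 kb). In replicate 1 alone the values were 0.728 and 0.833, and in replicate 3 alone 0.89 and 0.667, so the order of the classes changed between replicates. Without rl, left out after seeing the data, the kinases stood at 1.43 per 10 kb in the optimal set against 0.75. The same pair of values was 1.43 and 0.833 in replicate 1 and 1.74 and 0.667 in replicate 3. In the stronger 50% of the optimal set, all 3 kinases included, the densities were 0.647 and 0.167, and with peaks among the 2546 strongest of both replicates 0.728 and 0.333. How the peaks were shared out differed: all 9 of the kinases were at Raf, whereas each of the other 3 genes had at least 2. Counted from the downstream start of Raf, which was tried after the values were seen, the kinases held none. Before IDR the classes lay farther apart, with 2.75 summits per 10 kb at the kinases and 6.17 at the other 3 genes in the list of both replicates together. The values were 2.02 and 6.5 in replicate 1 and 3.8 and 5.75 in replicate 3. Without rl, whose surroundings hold few summits, the kinases stood at 5.07, 3.17 and 7.29 in the same lists. They were then below the other 3 genes in the list of both together and in replicate 1, and above them in replicate 3. No test was made, since genes are not replicates and there is 1 group.

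By place, 19 of the 22 summits lay in introns (86.4%, exact Clopper-Pearson 95% interval 65.1 to 97.1%), against 52.6% of the optimal set. The rest were the 5′ UTR peak of Egfr and those upstream of Raf and aop. A start of any gene lay within 500 bp of 5 of the 22 (22.7%, interval 7.82 to 45.4%), against 47.1% of the optimal set. Only Egfr and aop had a summit so near to a start of their own. Intervals cover counting error only, and peaks of 1 gene are not independent of each other. Windows drawn around genes leave less room for intergenic summits than the whole genome does, so these shares are not over the same ground.

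By rank, the 22 peaks ran from 47 to 2497 in the optimal set, with a median of 1307.5, so 11 lay in its stronger 50%. Of those 11, 8 were at Raf, 2 at aop and 1 at Egfr. Each of the 22 overlapped, by at least 1 bp, a peak in the whole list of each replicate. Among the 2546 strongest, 19 had a partner in replicate 1 and 18 in replicate 3 (86.4% and 81.8%, against 85.6% and 73.4% of the optimal set). The 3 missing from replicate 1 were the promoter peak and the last peak of Egfr and the nearer of the pair at pnt. The 4 missing from replicate 3 were a pair at aop (ranks 2579 and 5020) and single peaks at pnt (5717) and sty (3417). Summits of the replicates lay a median of 12.5 bp (replicate 1) and 21 bp (replicate 3) from those of the optimal set.

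**Figure D4:**
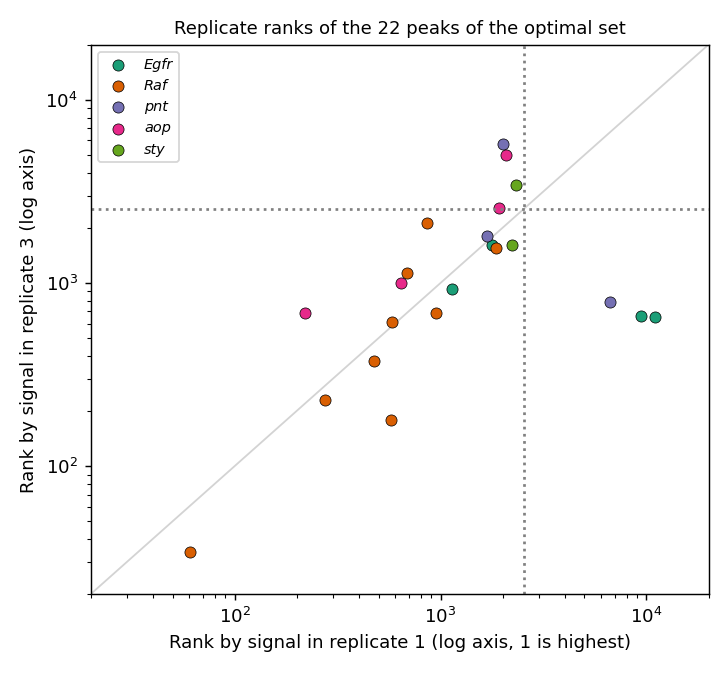
Rank by signal in replicate 1 (horizontal) and in replicate 3 (vertical) of the 22 peaks of the optimal set at the pathway genes, both on log axes. Dotted lines stand at rank 2546 and the grey line at equal ranks. All 9 peaks of Raf lie inside both lines, 3 peaks of Egfr and pnt lie to the right, and 4 peaks of aop, pnt and sty lie above.

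The limits of the rule fell as follows. The weakest peaks inside the optimal set were at aop (rank 2497, signal 62) and pnt (2482, signal 62.3), and the strongest outside it were at pnt (2678, signal 59.6) and aop (2691, signal 59.5). The summits nearest to the limit of 3 kb were those 1716 bp before Raf and, outside, 1 of rank 522 at 3095 bp downstream of sty. Of the 10 genes, 3 lie on X. Their windows held 28 summits in the whole list of replicate 1 and 58 in that of replicate 3, while the windows of the 7 others held 103 and 106. In these lists X held 13% and 19% of all summits, and the part of this difference in the counts at Raf, Dsor1 and csw was not tested. Among the 2546 strongest peaks the 3 genes on X held 9 summits in replicate 1 and 11 in replicate 3.

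Other genes of the pathway, a list of 32, were counted in the same way. Of these, 19 (59.4%) had at least 1 summit of the optimal set, 34 summits in all, or 0.613 per 10 kb. Inside the genes alone there were 23 summits, and with flanks of 1000 and 5000 bp there were 31 and 38. Over all protein-coding genes the share was 24.3% and the density 0.268 per 10 kb. The median window of the 32 genes was 13.5 kb, and in the class from 10 to 20 kb the share over all protein-coding genes was 31.8%. The median count was 1 summit per gene. The 2546 strongest peaks of each replicate gave 33 summits (replicate 1) and 32 (replicate 3).

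Among the ligands, spi held 3 summits (best rank 428), Krn 2 (688) and vn 1 (1933), and grk held none. The best of spi ranked 738 in replicate 1 and 326 in replicate 3, 297 bp from a start. The other 2 of spi overlap each other, 162 and 361 bp from a start, and share their partners in the replicates. That of vn lay 26197 bp from a start of its own and 6374 bp from mad2. Of the genes that process ligands, ru and S held 3 each (best ranks 1074 and 657), and rho and stet none. All 3 of S lay inside the gene. At ru the peaks of rank 1074 and 2182 lay outside the gene, and that of rank 1111 inside it, nearest to tRNA:Glu-CTC-3-1. Of the adaptors, drk, which bridges receptor and Sos, held 2. These ranked 1334, nearest to mars, and 1741, with no partner in replicate 1. The strongest peak of the 32 genes lay at Shc, 127 bp from its start and 125 bp from that of the neighbour Atat. It ranked 84, with 60 in replicate 1 and 210 in replicate 3. dos and Cbl held none.

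The GTPase-activating protein genes RasGAP1 and Nf1 held 1 each (ranks 154 and 604) and vap none. That of Nf1 lay outside the gene, 330 bp from the start of CG43116. That of RasGAP1 ranked 148 in replicate 1 and 213 in replicate 3. Of the scaffold genes, cnk held 2 (best rank 187), both outside the gene and nearest to l(2)k01209, Sur-8 held 1 (1444), and ksr and ave none. Among nuclear regulators all 3 had peaks: cic, a repressor relieved by the MAP kinase, held 4 (best rank 249), edl, which binds Pnt and Aop, 3 (best rank 224), and the corepressor gene gro 1 (259). Of the inhibitors, aos, a secreted antagonist of the pathway, held 2 (ranks 2421 and 2434) and Spred 1 (2171), while kek1 held none. The MAP kinase phosphatase gene Mkp3 held 1 (2503) and PTP-ER none. Among other receptor tyrosine kinases, btl and Pvr held 1 each (2014, nearest to CG8100, and 1326), and sev, htl and tor none.

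By class, the 3 nuclear regulators had the highest density of these groups (0.96 per 10 kb, 8 summits) and the other receptors the lowest (0.241 per 10 kb, 2 summits). In replicate 1 alone the ligand-processing and scaffold genes stood higher than the nuclear regulators (0.794 and 0.917 against 0.72). In replicate 3 alone the inhibitors stood higher (0.854 against 0.84), so the highest place did not hold in each replicate. The other receptors were lowest in both (0.241 in replicate 1 and 0.121 in replicate 3).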

How the data were processed

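ChIP-seq peaks of GFP-tagged CG32264 from whole larvae were analysed in 2 biological replicates, 1 and 3, of 1 group, after immunoprecipitation with anti-GFP. Sonicated fragments measured 200 to 800 bp, per the labels. The authors deposited peak lists in dm3 and dm6, and the dm6 lists were used. The joint list was made from both replicates' alignments and each replicate's list from its own, with 1 further file in each case, per the deposited notes. No source used here names the aligner, the peak caller or its thresholds. The signal of a peak (column 7) is the authors' deposited value and served only to rank peaks within a list, since its scale differs between lists. For 1 alternative ranking the deposited −log10 q was used, with values of 2.66 to 3.63 among optimal-set peaks. All 2546 peaks of the optimal set were the top 2546 of the joint list, so it shares reads with both replicates. Depth per sample is unknown.

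A summit is column 2 plus column 10. Counting was checked on simulated windows. Genes came from Ensembl release 115 and sequence from RefSeq Release 6, and every peak lay on 6 arms (2L, 2R, 3L, 3R, 4 and X). Python 3.11.15, pandas 2.3.3 and scipy 1.17.1 were used. Motifs were searched on both strands. The sequence at aop is not reported here. All 10 genes are named, and of the 32 others every gene with a summit of the optimal set. The genes, lists and comparisons were chosen with earlier results of these data known. Alternatives changed the window (0, 1000 and 5000 bp), the peaks used, the rule for placing a peak, the classes, the overlap and the ranking column.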

Additional observations from a re-analysis of the deposited data

How the results depend on the processing

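The count of summits at the 10 genes was 22, and it stayed between 20 and 24 with other windows (0, 1000 and 5000 bp), with a peak's overlap in place of its summit, and with the 2546 strongest peaks of either replicate alone. Leaving out a replicate meant taking the 2546 strongest peaks of the other, which gave 22 without replicate 3 and 24 without replicate 1. The density of the kinases was 0.728 to 0.89 and of pnt, aop and sty 0.667 to 0.833 with 1 replicate left out, the median per gene was 1.5 and the other pathway genes held 32 to 33. The genes with a peak numbered 5, and 6 with either replicate alone. With the stronger 50% of the optimal set, which holds fewer peaks by construction, 11 summits were left at 3 genes, the median per gene was 0 in place of 1, the density of pnt, aop and sty was 0.167 per 10 kb in place of 0.75, and the other pathway genes held 17 in place of 34. With peaks found in both replicates' strongest 2546, that density was 0.333, the median 0.5 and the other pathway genes held 21; the density of the kinases was 0.728 as before. With Raf counted from its downstream start, chosen after seeing the data, the 10 genes held 13 summits and the density of the kinases was 0. With rl left out, also chosen after seeing the data, it was 1.43. Against the whole list of a replicate, 100% of the 22 peaks had a partner in replicate 1 and 100% in replicate 3. Ranked by −log10 q the median rank was 1 in place of 1307.5, since 19 of the 22 peaks share the highest q. No paired analysis was possible because there is 1 group. Peak lists give no depth, so weak peaks at Sos, csw, Ras85D, Dsor1 and rl cannot be told from background. Of 58 alternative values of the main results, 14 moved by more than 1.5 times or more than their interval, all given above. The order of the kinases and of pnt, aop and sty turned between settings. The kinases were lower in the optimal set, with the other windows and in replicate 1 alone. They were higher in replicate 3 alone, in the stronger 50% and with peaks in both replicates' strongest 2546. They were also higher with rl left out, with Egfr counted among the kinases (0.778) and with aop left out of the other class (0.545). Of 80 alternative counts of single genes 11 moved, each at Egfr, pnt, aop, sty, Ras85D or Dsor1; Ras85D had 1 summit in replicate 1 alone and Dsor1 1 in replicate 3 alone, where the optimal set had none. The cause was not tested.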
